A study of Mus musculus with 12 samples.

Results

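The 10 genes described here are Wdr7, Disp2, Ddx6, Heatr5b, Wdr19, Dcc, Rfx3, Pgm2l1, Slc24a2 and Supt7l. They were taken by name, and they had been chosen by their lower normalized counts in the hippocampus at 18 against 6 months, so that difference selected them and is given as a description. All 10 were present among the 14663 named genes of the hippocampus data and among the 29957 named genes of the microglia data. The study sequenced RNA of C57BL/6 mice, with no treatment or allele given, in 4 groups of 3 libraries. Whole hippocampus was taken at 18 months (aged) and at 6 months (mature), and microglia of the hippocampus, its resident immune cells, at 24 months (old) and at 3 months (young). How microglia were obtained is not given in the sources used here. Nothing says that each library is a different mouse either, and the p-values then speak only of how these libraries vary, which may be technical.

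The 10 genes do not form a pathway. Wdr7 and Heatr5b serve the membranes of vesicles and endosomes. Dcc and Slc24a2 encode membrane proteins that neurons use for guidance cues and calcium, and Disp2 encodes a relative of a transporter of lipid-linked signals. Wdr19 works in the primary cilium, the antenna-like organelle of most neurons and astrocytes, and Rfx3 is a nuclear factor that controls ciliary genes. Pgm2l1 makes a sugar phosphate, and Ddx6 and Supt7l act on mRNA decay and on transcription.

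The hippocampus libraries held markers of each cell type looked up, and of the markers in the table none was at 0 in all 6, while 1 of 8 oligodendrocyte precursor markers and 1 of 10 ependymal markers were not analysed here. The 16 neuronal markers summed to 9718 to 10677 normalized counts at 18 months and to 10023 to 10919 at 6 months, and 8 were lower and 8 higher at 18 months. Other lists stood apart in their sums. The 7 oligodendrocyte precursor markers in the table (6 lower at 18 months) summed to 131 to 207 normalized counts at 18 months and to 215 to 223 at 6 months, the 14 microglia markers (10 higher) to 883 to 926 at 18 months and 651 to 805 at 6 months, and the 8 erythroid and neutrophil markers (5 of the 6 tested were higher) to 104 to 329.9 at 18 months and 41.9 to 64.5 at 6 months. Choroid plexus markers varied widely at both ages, from 247 to 11024 at 18 months and from 134 to 6943 at 6 months. The part of these shifts in the values of the 10 genes was not tested. In whole tissue, fewer cells of a type and less RNA per cell cannot be told apart.

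In the hippocampus each of the 10 genes had all 3 of its 18 month values below all 3 of its 6 month values. The same held for 5.93% of the 13491 genes tested (800 genes), and the opposite order for 5.03%, but the count of members follows from how they were picked. The authors' deposited table gave 9 of the 10 an adjusted p under 0.05 and a lower level at 18 months, out of 22 such genes in all (0.186% of genes with an adjusted p). Supt7l was not called there. This count too follows from how the genes were picked, since the rule used the same contrast. limma's moderated test called 0% of the 13491 genes in either direction after Benjamini-Hochberg adjustment, with a smallest adjusted p of 0.155, and 437 genes lower and 288 higher at an unadjusted p under 0.05. The median log2 difference of the 10 genes, on the scale log2(normalized count + 1), was -1.86, against -0.04 over all genes tested. It was -1.09 over the 6 genes above 0 in every library, a choice made after seeing the data, since the values of the 4 genes with a 0 follow the pseudocount.

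**Figure D1:**
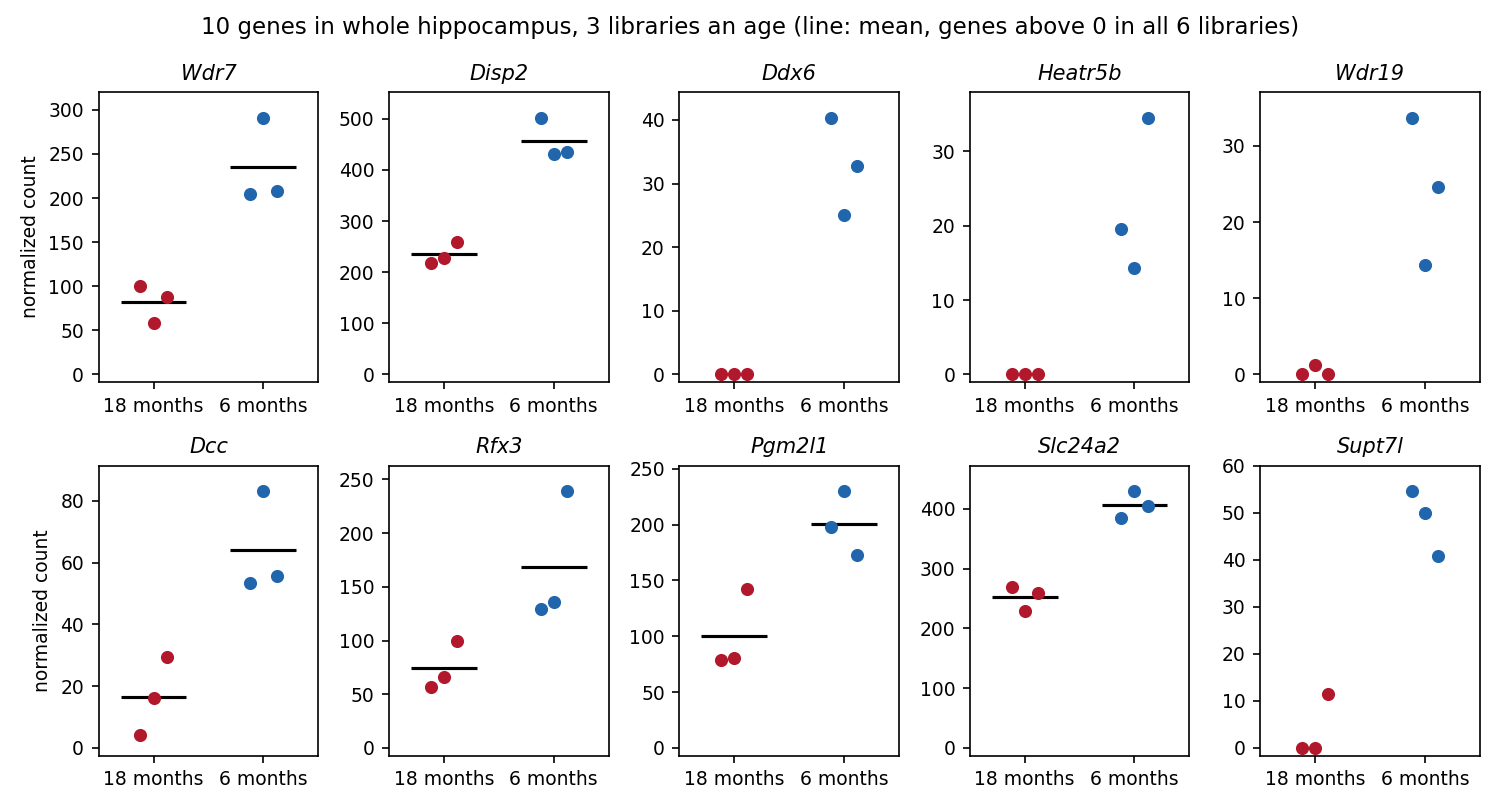
Normalized counts (vertical axes, linear, each gene on its own scale) of the 10 genes in whole hippocampus, with 18 month libraries on the left (red) and 6 month libraries on the right (blue). Each point is a library and lines are group means, drawn for the 6 genes above 0 in all 6 libraries. In each panel the 18 month points lie below the 6 month points, and Ddx6 and Heatr5b are listed at 0 in all 3 libraries of 18 months.

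The membrane traffic genes are Wdr7 and Heatr5b. Wdr7 (chromosome 18) encodes a subunit of rabconnectin-3, which assembles the proton pump of synaptic vesicles and other acid compartments. It had 101, 58.2 and 88.3 normalized counts in the 18 month libraries, against 205, 291 and 208 in the 6 month libraries. Its lowest 6 month value was 2.04 times its highest 18 month value, and the 18 month mean of 82.3 ± 21.8 was 35.1% of the 6 month mean of 235 ± 48.9 (SD, n = 3 each). The log2 difference was -1.52 ± 0.25 (SE). Exons of coding transcripts of Wdr7 overlap those of Txnl1, a thioredoxin-like gene on the opposite strand, in GENCODE M21, and the libraries are not stated to keep strand. Txnl1 had 57.4, 36.8 and 39.6 normalized counts at 18 months and 37.7, 19.96 and 64.4 at 6 months, so its groups overlapped.

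The partners of Wdr7 lay on both sides. Of 20 listed and tested genes of rabconnectin-3 and the V-ATPase proton pump, 9 were lower and 11 higher at 18 months (median log2 difference 0.00), and limma called 0. Dmxl2, the large rabconnectin-3 subunit that binds Wdr7, had 193, 126 and 175 normalized counts at 18 months and 131, 149 and 121 at 6 months (log2 difference 0.28 ± 0.22, SE). Rogdi, a further partner, had 61.8, 0 and 27.2 normalized counts at 18 months, against 25.6, 26.8 and 10.005 at 6 months. The Dmxl2 and the Rogdi values of the 2 ages overlapped.

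Heatr5b (chromosome 17, 78752898 to 78835364 on GRCm38, minus strand) encodes a HEAT repeat protein that works with the clathrin adaptor AP-1 and aftiphilin on endosomes. It was listed at 0 in the 3 libraries of 18 months and had 19.6, 14.2 and 34.5 normalized counts in the 6 month libraries, so no fold is given. As for the other genes listed at 0, such a value may stand for an estimate that failed. Its relative Heatr5a was also low, with 0, 0 and 2.31 normalized counts at 18 months and 5.15, 3.56 and 3.76 at 6 months, and its groups did not overlap. Aftph, the aftiphilin gene, had 78.1, 48.9 and 51.2 normalized counts at 18 months, against 91.1, 42.5 and 32.4 at 6 months, with overlap. Of the 19 tested genes of the AP-1 and aftiphilin list, 12 were lower and 7 higher at 18 months (median log2 difference -0.06; 0 called by limma).

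The genes of the neuronal surface are Dcc, Disp2 and Slc24a2. Dcc (chromosome 18) encodes a receptor for netrin, the secreted cue that steers growing axons and acts on synapses of adult neurons. It had 4.09, 16.0 and 29.5 normalized counts at 18 months, against 53.5, 83.1 and 55.7 at 6 months. The 18 month libraries were far apart from each other, with a mean of 16.6 ± 12.7, against 64.1 ± 16.5 at 6 months (SD, n = 3 each; log2 difference -2.21 ± 0.60, SE). Without 18 month replicate 1 the log2 difference was -1.48.

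Of the listed netrin ligands, co-receptors and transducers, 20 were tested, 12 lower and 8 higher at 18 months (median log2 difference -0.12), and limma called 0. Ntn1, the main netrin ligand, was low in all libraries, with 0, 0 and 2.23 normalized counts at 18 months and 3.47, 15.4 and 4.90 at 6 months. Its groups did not overlap, and its limma adjusted p was 0.877. Neo1, the receptor most like Dcc, had 57.5, 22.3 and 30.2 normalized counts at 18 months, against 56.3, 55.4 and 28.3 at 6 months, with overlapping groups.

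Disp2 (chromosome 2, 118779719 to 118811293 on GRCm38, plus strand) is a neuronal relative of Dispatched, the transporter that releases Hedgehog proteins from cells. It had 218, 228 and 259.8 normalized counts at 18 months, against 502, 431 and 435 at 6 months. Both groups were tight, at 235 ± 21.9 against 456 ± 39.9 (SD, n = 3 each), so the aged level was 51.6% of the mature one (log2 difference -0.95 ± 0.16, SE). Its relative Disp1 had overlapping groups, with 0, 21.7 and 2.07 normalized counts at 18 months and 6.94, 0 and 2.95 at 6 months. Of 15 tested Hedgehog signalling genes 6 were lower and 9 higher at 18 months (median log2 difference 0.05; 0 called by limma).

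Slc24a2 (chromosome 4, 86983124 to 87230477 on GRCm38, minus strand) encodes a potassium-dependent sodium-calcium exchanger that clears calcium from neurons after activity. It had 268, 229 and 259.9 normalized counts at 18 months, against 384, 429 and 404 at 6 months. It had the smallest log2 difference of the 10, at -0.68 ± 0.16 (SE), and the aged mean of 252 ± 20.7 was 62.2% of the mature mean of 406 ± 22.7 (SD, n = 3 each). RefSeq lists a pair of starts for the gene, and the 250 bases before each are shown because the deposited values per gene cannot tell them apart. Capitals mark CCAAT or TATAAA, or their reverse complements.
Slc24a2 upstream start, chr4:87230541-87230790, minus strand: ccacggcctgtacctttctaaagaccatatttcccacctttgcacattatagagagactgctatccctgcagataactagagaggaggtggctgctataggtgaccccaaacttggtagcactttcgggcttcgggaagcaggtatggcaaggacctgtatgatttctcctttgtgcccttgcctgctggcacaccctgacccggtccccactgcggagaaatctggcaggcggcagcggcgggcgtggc
Slc24a2 downstream start, chr4:87227964-87228213, minus strand: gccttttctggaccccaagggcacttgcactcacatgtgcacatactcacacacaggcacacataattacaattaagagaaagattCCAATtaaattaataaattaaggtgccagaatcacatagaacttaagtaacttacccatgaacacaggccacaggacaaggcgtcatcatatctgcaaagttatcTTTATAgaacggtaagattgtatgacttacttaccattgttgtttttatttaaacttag
The upstream start lies behind 56.0% G or C and holds neither motif. The downstream one lies behind 36.8% G or C, with 1 CCAAT match 164 bases and 1 TATAAA match 59 bases before the start. A CCAAT match stood in 33.8% and a TATAAA match in 12.3% of 32536 mouse promoter windows of that length.

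The groups of the relatives Slc24a3 and Slc24a4 overlapped. Slc24a3 had 91.8, 77.0 and 70.8 normalized counts at 18 months, against 71.1, 57.6 and 39.3 at 6 months (log2 difference 0.54 ± 0.31, SE), and Slc24a4 had 10.1, 30.4 and 14.8 at 18 months, against 25.3, 34.1 and 22.2 at 6 months. Of the 12 tested exchangers and calcium pumps, 5 were lower and 7 higher at 18 months (median log2 difference 0.44; 0 called by limma). Atp2b1, a plasma membrane calcium pump picked out after its values were seen, had 352, 379 and 328 normalized counts at 18 months and 485, 507 and 408 at 6 months. Its groups did not overlap, with a log2 difference of -0.40 ± 0.15 (SE) and a limma adjusted p of 0.877.

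The genes tied to cilia are Wdr19 and Rfx3. Wdr19 (chromosome 5, 65199696 to 65260415 on GRCm38, plus strand) encodes a core subunit of IFT-A, the complex that carries cargo back from the tip of the cilium. It was listed at 0, 1.23 and 0 normalized counts at 18 months and had 33.7, 14.3 and 24.6 at 6 months. Its lowest 6 month value was 11.7 times the sole 18 month value above 0. Rfx3 (chromosome 19, 27761721 to 28011166 on GRCm38, minus strand) encodes a transcription factor that switches on ciliary genes through a DNA element called the X-box. It had 56.8, 66.4 and 99.3 normalized counts at 18 months, against 129, 136 and 239 at 6 months. The aged mean was 44.2% of the mature mean, 74.2 ± 22.3 against 168 ± 61.5 (SD, n = 3 each; log2 difference -1.15 ± 0.29, SE), and 6 month replicate 3 stood above the other mature libraries.

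The 250 bases before the RefSeq starts of Wdr19 and Rfx3 (GRCm38.p6) are shown because the one is a ciliary gene and the other encodes a factor of ciliary genes.
Wdr19, chr5:65199446-65199695, plus strand: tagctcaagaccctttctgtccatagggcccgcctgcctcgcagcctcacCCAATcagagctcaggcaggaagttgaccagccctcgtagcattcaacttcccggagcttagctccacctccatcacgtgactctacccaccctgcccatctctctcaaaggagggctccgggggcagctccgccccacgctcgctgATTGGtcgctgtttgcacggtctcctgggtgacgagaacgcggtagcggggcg
Rfx3, chr19:28011167-28011416, minus strand: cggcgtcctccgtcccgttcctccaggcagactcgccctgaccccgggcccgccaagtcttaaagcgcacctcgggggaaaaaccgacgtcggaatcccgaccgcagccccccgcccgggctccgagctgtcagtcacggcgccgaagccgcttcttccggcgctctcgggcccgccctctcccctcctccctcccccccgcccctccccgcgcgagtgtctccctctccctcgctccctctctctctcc
Capitals again mark CCAAT or its reverse complement ATTGG, which Wdr19 holds at 2 places, 200 and 53 bases before its start. The exact letters GTTGCC, one form of an X-box arm, were found on neither strand of these windows. That says only that these letters are not in these 250 bases. Variant forms of the arm were not looked for alone, so whether either window holds a more loosely spelled X-box was not tested. GTTGCC stood in 10.3% of the 32536 mouse windows. The same table held promoters of Pgm2l1 and Supt7l, without a match to any of the motifs named here.

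Other genes of the cilium lay on both sides. Of the 5 tested partners in the IFT-A list, 3 were lower and 2 higher at 18 months (median log2 difference -0.18). Ift122 had 68.4, 58.3 and 41.5 normalized counts at 18 months, against 36.6, 39.1 and 49.0 at 6 months. Ift140 had 16.8, 20.7 and 24.7 at 18 months, against 22.5, 88.7 and 13.5 at 6 months. Both encode IFT-A subunits like Wdr19, and the groups of both overlapped. In the list of the outbound complex IFT-B and the ciliary motors 9 of 26 tested genes were lower and 17 higher (median log2 difference 0.10), and limma called 0 in either list.

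In the RFX family list, which also holds the ciliary factor Foxj1, 6 of 8 tested genes were lower and 2 higher at 18 months (median log2 difference -0.11; 0 called by limma). Rfx1 had 14.4, 23.3 and 10.1 normalized counts at 18 months, against 4.15, 23.3 and 11.4 at 6 months, and Rfx4 had 36.4, 8.07 and 39.4 at 18 months, against 13.99, 37.7 and 29.3 at 6 months, with overlap in both. In the authors' deposited table Rfx5, which controls MHC class II genes, was higher at 18 months, with a log2 change of 3.55 ± 0.90 (SE) and an adjusted p of 0.0363. Rfx5 had 65.3, 43.0 and 4.18 normalized counts at 18 months and 1.15, 1.32 and 6.23 at 6 months. The groups overlapped, since 18 month replicate 3 lay below 6 month replicate 3, and limma gave an adjusted p of 0.877. The authors' call rate for higher genes was 0.118%.

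Pgm2l1 (chromosome 7, 100227394 to 100278868 on GRCm38, plus strand) encodes the brain enzyme that makes glucose 1,6-bisphosphate, the activator of the phosphohexomutases. It had 78.9, 80.6 and 142 normalized counts at 18 months, against 198, 229.9 and 173 at 6 months. The aged mean of 100.5 ± 35.9 was 50.2% of the mature mean of 200.1 ± 28.6 (SD, n = 3 each; log2 difference -1.03 ± 0.25, SE). The gap between the ages was narrow, since the lowest 6 month value was 1.22 times the highest 18 month value. The related mutases Pgm2 and Pgm1 had overlapping groups, with log2 differences of 0.29 ± 0.29 and 0.13 ± 0.85 (SE). Of 15 tested mutases and hexose phosphate enzymes 5 were lower and 10 higher at 18 months (median log2 difference 0.11; 0 called by limma).

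The genes that act on RNA and chromatin are Ddx6 and Supt7l. Ddx6 (chromosome 9, 44604892 to 44640731 on GRCm38, plus strand) encodes a DEAD-box RNA helicase that represses translation and triggers decapping in P-bodies, cytoplasmic granules of stored mRNA. It was listed at 0 in the 3 libraries of 18 months and had 40.3, 25.0 and 32.8 normalized counts at 6 months. Ddx6 is used by most cells, and its value of 0 is given here only as listed. Among 9886 genes with a mean of at least 10 normalized counts, 246, 100 and 90 were listed at 0 in 18 month replicates 1, 2 and 3, and 52, 134 and 39 in 6 month replicates 1, 2 and 3. None of 25 widely expressed genes looked up besides was at 0 in any library. Across all genes, 7 were at 0 in every 18 month library and above 5 in every 6 month library (Ddx6, Heatr5b, Aldh16a1, Golga4, Lactb, Rad9a and Rasgef1b). With a limit of 10 there were 2, Ddx6 and Heatr5b, and with a limit of 20 there was 1, Ddx6. With each of these limits 0 genes showed the opposite order.

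Genes that work with Ddx6 in decapping, deadenylation and repression were mixed. Of 32 tested, 19 were lower and 13 higher at 18 months (median log2 difference -0.27, against -0.04 over all genes), and limma called 0. At an unadjusted p under 0.05 there were 6 lower and 2 higher, beside 3.24% lower and 2.13% higher of all genes. Every aged value lay below every mature one in 6 of the 32 (Cnot1, Cnot7, Cnot8, Cnot11, Eif4enif1 and Tnrc6b), beside 5.93% of all tested genes. Every aged value lay above in 4 (Cnot3, Cnot10, Lsm7 and Tnrc6c), beside 5.03%. These genes were named after their values were seen. Lsm14a, a P-body protein that binds Ddx6, had 0, 15.7 and 2.33 normalized counts at 18 months, against 14.04, 32.4 and 18.4 at 6 months. Edc4, the scaffold of the decapping complex, had 83.8, 44.8 and 27.3 normalized counts at 18 months, against 64.0, 54.2 and 54.2 at 6 months, with overlap.

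The CCR4-NOT deadenylase, whose scaffold binds Ddx6, had subunits on both sides, and those given here were chosen after their values were seen. Cnot1, the scaffold, had 32.3, 1.24 and 20.1 normalized counts at 18 months, against 46.0, 98.1 and 37.7 at 6 months. Cnot7, a catalytic subunit, had 73.3, 77.0 and 122 at 18 months, against 143, 129 and 174 at 6 months. Cnot8, its close relative, had 43.8, 79.4 and 84.3 at 18 months, against 131, 108 and 89.7 at 6 months. For these genes every aged value lay below every mature one, whereas Cnot3, a regulatory subunit, had 26.6, 59.2 and 40.4 normalized counts at 18 months, above its 10.3, 18.7 and 18.0 at 6 months. The limma adjusted p was 0.877 for Cnot1, Cnot7 and Cnot3 and 0.899 for Cnot8.

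Supt7l (chromosome 5, 31514564 to 31527807 on GRCm38, minus strand) encodes a structural subunit of SAGA, a coactivator that acetylates histones. It was listed at 0, 0 and 11.5 normalized counts at 18 months and had 54.6, 50.0 and 40.8 at 6 months. Its lowest 6 month value was 3.54 times its highest 18 month value. Slc4a1ap, its neighbour on the opposite strand whose gene overlaps it, had 10.7, 0 and 9.23 normalized counts at 18 months, against 37.2, 26.9 and 0.630 at 6 months. Of the other SAGA genes 23 were tested, 9 lower and 14 higher at 18 months (median log2 difference 0.22; 0 called by limma). Tada1, a further core subunit of SAGA, had 99.2, 55.8 and 97.4 normalized counts at 18 months, against 65.3, 93.1 and 103 at 6 months. Supt20, also of the core, had 20.8, 9.67 and 8.72 at 18 months, against 20.2, 0 and 5.86 at 6 months. The groups of both genes overlapped.

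Over all lists of partners and relatives together, 195 of 222 genes were tested in the hippocampus, 95 lower and 100 higher at 18 months. Their median log2 difference was 0.00, against -0.04 over all genes tested. Every aged value lay below every mature value in 7.18% of them, beside 5.93% of all tested genes, and above in 5.64%, beside 5.03%.

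**Figure D2:**
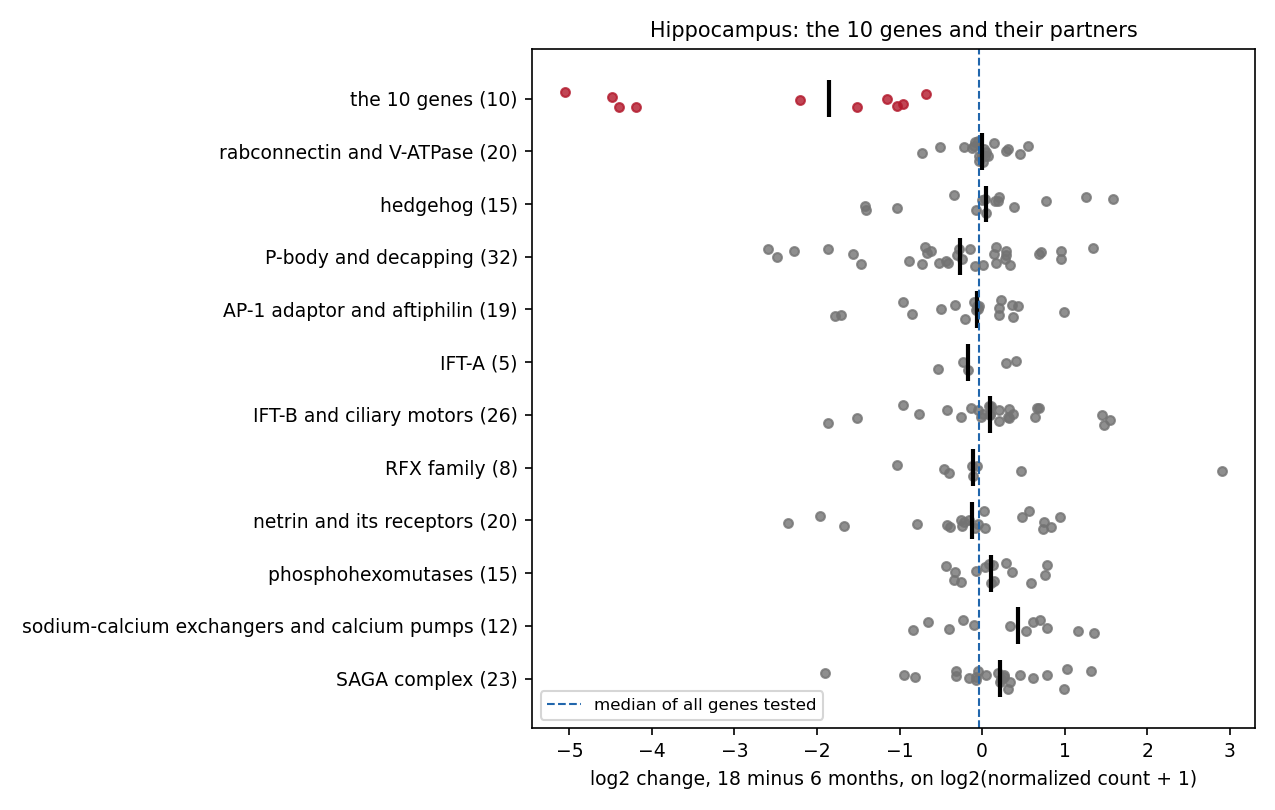
Log2 differences, 18 minus 6 months, on log2(normalized count + 1) (horizontal axis) of the 10 genes (red) and of the tested genes of each partner list (grey, number tested in brackets). Points are genes, black bars are list medians and the dashed line is the median of all genes tested. The median of the 10 picked genes is -1.86, and the medians of the partner lists lie between -0.27 (P-body and decapping) and 0.44 (exchangers and calcium pumps); values of genes listed at 0 depend on the pseudocount.

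Transcript length was not part of the rule that chose the genes. In the GENCODE M21 annotation (GRCm38) their longest coding transcripts had a median of 6880.5 bases, against 3247 bases over the 12691 tested genes with a coding transcript, and 9 of the 10 fell in the longest 25%. Slc24a2 (10531 bases) and Dcc (10323 bases) had the longest, longer than in 97.7% and 97.6% of those genes, and Supt7l, at 3056 bases, was the exception. Their span on the genome had a median of 71593.5 bases, against 25545 bases, and that of Dcc was 1097436 bases. The other genes of the longest 25%, taken without the members, had a median log2 difference of -0.13 at 18 against 6 months, and those of the shortest 25% 0.04. The part of length in the values of the 10 genes was not tested.

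**Figure D3:**
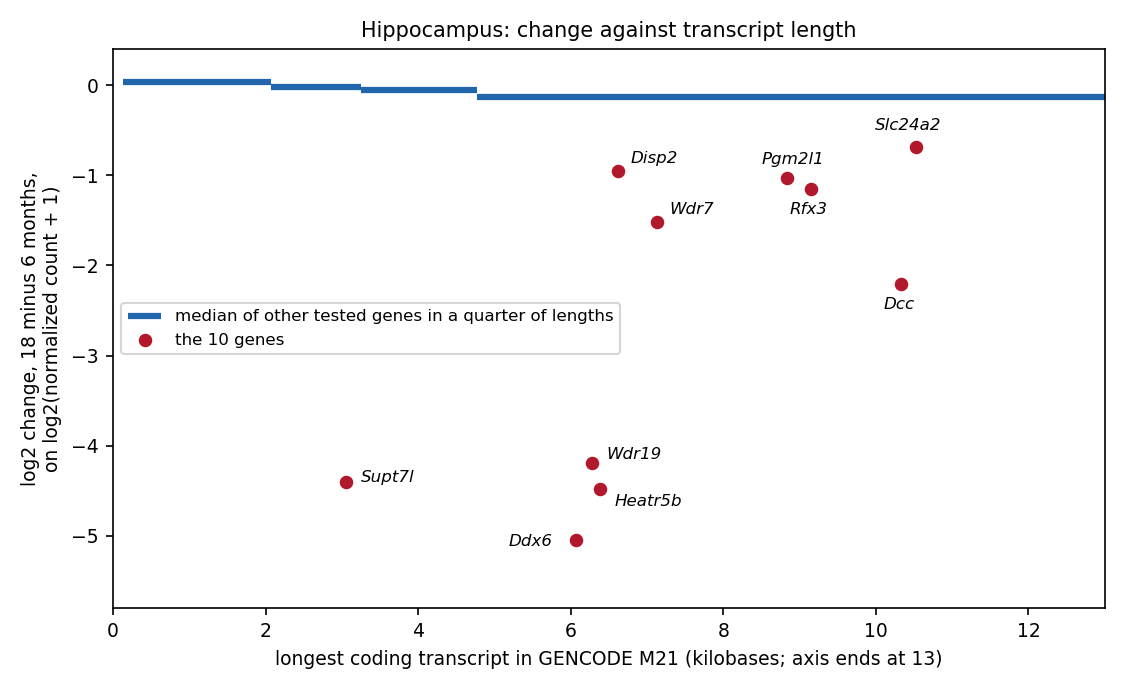
Log2 difference, 18 minus 6 months, on log2(normalized count + 1) (vertical axis) against the longest coding transcript in kilobases (horizontal axis, linear). Red points are the 10 genes, and blue bars are the medians of the other tested genes in each 25% of lengths. The blue bars step down from 0.04 in the shortest 25% to -0.13 in the longest 25%, which holds 9 of the 10 genes.

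The genes most like the 10 over the 6 hippocampus libraries were sought by Pearson's r with the mean of their standardised log2 values, among 2707 genes with a mean at or above the median of the 10. Kcna2, a voltage-gated potassium channel, came first (r = 0.985), followed by the splicing factor Srsf7 (r = 0.982) and, lower in the order, the lysosomal membrane protein Laptm4b (r = 0.961) and the acetyltransferase Naa60 (r = 0.959). These values are a description, since the 6 libraries fall into the 2 ages on which the 10 genes were picked. Kcna2 had 50.3, 48.6 and 70.4 normalized counts at 18 months, against 113, 110.5 and 102 at 6 months. Srsf7 had 61.0, 68.1 and 97.8 at 18 months, against 145, 148 and 149 at 6 months. Both were highest of the aged libraries in 18 month replicate 3. The mean standardised value of the 10 genes was also highest there (-0.49, against -1.05 and -0.98 in 18 month replicates 1 and 2). This shared order follows largely from the choice, since Kcna2 and Srsf7 were picked by r over the same 6 libraries.

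The microglia gave a comparison of other ages that had no part in choosing the genes. Microglia markers summed to 58778 to 77342 CPM (counts scaled to the library total) at 24 months and to 79461 to 84834 CPM at 3 months, and 11 of the 14 were lower at 24 months. Neuronal markers summed to 105 to 166 CPM at 24 months and 79.3 to 131 CPM at 3 months. Markers of other cells stood apart by age: those of astrocytes summed to 336 to 469.6 CPM at 24 months and 129.9 to 267 CPM at 3 months (5 of the 6 tested were higher), of endothelial cells to 51.4 to 143 CPM at 24 months and 23.4 to 45.5 CPM at 3 months, of CA pyramidal neurons to 59.0 to 89.4 CPM at 24 months and 35.6 to 57.2 CPM at 3 months, and of ependymal cells to 4.11 to 5.77 CPM at 24 months and 7.88 to 9.75 CPM at 3 months. Some other lists overlapped between the ages but ranged widely at 24 months. Erythroid and neutrophil markers summed to 9.18 to 2106 CPM at 24 months and 7.83 to 54.8 CPM at 3 months. Mural cell markers summed to 0.757 to 292 CPM at 24 months and 0.298 to 0.870 CPM at 3 months. Dentate granule neuron markers summed to 81.8 to 382 CPM at 24 months and 108 to 160 CPM at 3 months. The part of these marker sums in the values of the 10 genes was not tested. Of the 10 genes 5 passed the filter on low counts, which kept 35.6% of the genes in the table. edgeR's quasi-likelihood test called 0 of the 5, and 0% of all 10663 genes tested, with a smallest adjusted p of 0.410. At an unadjusted p under 0.05 it had 0 of the 5 and 5.53% of all genes (590), and DESeq2 called 140 genes, 0 of them among the 5. The authors' deposited table gave 0 of the 10 an adjusted p under 0.05, beside 2.01% of the genes with an adjusted p. Wdr19, Dcc, Pgm2l1 and Slc24a2 had no adjusted p there, so they could not be called. Of the 5 tested 3 were higher at 24 months, beside 50.5% of all genes. For each of the 10 the 24 and 3 month values overlapped or were all 0, while 6.22% of tested genes had every 24 month value below every 3 month value and 7.25% above.

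Per length, on the TPM scale of transcript abundance, Supt7l was the most abundant of the 10 in microglia, with a median of 24.3 TPM over the 6 libraries. Heatr5b followed at 2.25 TPM, Ddx6 at 1.26 TPM, Wdr7 at 1.05 TPM and Rfx3 at 0.724 TPM, and the ranges of neighbours in this order overlapped over the libraries, that of Supt7l (which was at 0 in 1 library) included. Dcc (0.0228 TPM), Pgm2l1 (0.0212 TPM) and Disp2 (0.0180 TPM) came next, with few counts. Slc24a2 and Wdr19 had no estimated count in any library. By counting error alone this allows up to 0.211 to 0.372 CPM (3 counts of each library, over its unscaled total).

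The genes with counts in microglia were uneven between libraries of the same age. Supt7l had 61.6, 40.9 and 51.8 CPM at 24 months and 0, 4.23 and 46.2 CPM at 3 months. The old libraries were alike and the young ones were not, and its log2 change of 1.62 ± 1.64 (SE) had an edgeR adjusted p of 0.993. Ddx6 had 13.8, 0 and 10.6 CPM at 24 months and 0, 0 and 12.5 CPM at 3 months, so it was listed at 0 in 3 of 6 libraries and at similar levels in the others (log2 change 0.96 ± 2.59, SE; edgeR adjusted p = 0.998). Without 3 month replicate 3, the sole young library with Ddx6 counts, the log2 change was 9.39 for Ddx6 and 4.62 for Supt7l, with an edgeR adjusted p of 0.738 for both. Wdr7 was likewise at 0 in a library of each age, with 0, 9.43 and 2.74 CPM at 24 months and 20.2, 0 and 7.40 CPM at 3 months (log2 change -1.18 ± 2.22, SE; edgeR adjusted p = 0.998).

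Heatr5b, listed at 0 in the aged hippocampus, was counted in all 6 microglia libraries. It had 8.19, 21.6 and 6.06 CPM at 24 months and 20.1, 12.1 and 8.01 CPM at 3 months (log2 change -0.16 ± 0.99, SE; edgeR adjusted p = 0.998). Rfx3 had 4.30, 28.4 and 4.92 CPM at 24 months and 0.223, 2.61 and 6.31 CPM at 3 months (log2 change 2.04 ± 1.51, SE; edgeR adjusted p = 0.993). Its highest value was that of 24 month replicate 2, and without that library the log2 change was 0.59. Disp2 had 13, 32 and 0 estimated counts at 24 months and 0, 0 and 1 at 3 months, too few to pass the filter. Dcc had 0 to 9 and Pgm2l1 0 to 5 estimated counts in each library.

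**Figure D4:**
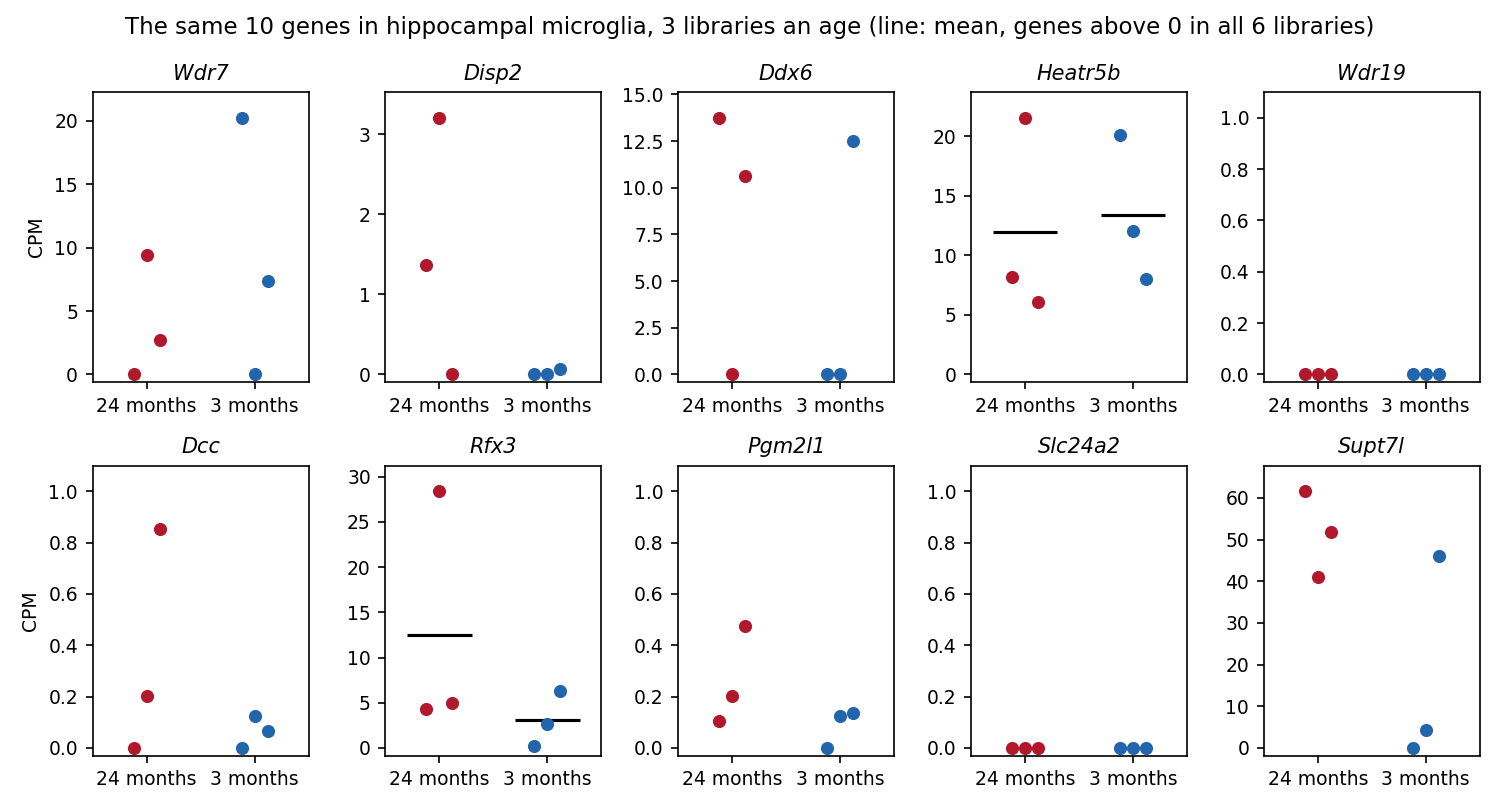
CPM values (vertical axes, linear, each gene on its own scale) of the 10 genes in hippocampal microglia, with 24 month libraries on the left (red) and 3 month libraries on the right (blue). Each point is a library, and lines are group means, drawn for Heatr5b and Rfx3, the genes above 0 in all 6 libraries. Groups overlap or are all 0 in each panel, and Slc24a2 and Wdr19 are at 0 throughout.

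The partner lists were also mixed in microglia, with 162 genes tested, 84 lower and 78 higher at 24 months (median log2 change -0.06, against 0.01 over all genes), and 0 called by edgeR. Of the 222 listed genes, 2 that did not pass the filter on low counts used here, Ift122 and Scube1, had an adjusted p under 0.05 in the authors' deposited table. Over all genes with an adjusted p there, 2.01% were called, so calls among the listed genes were not more frequent. Ift122, the IFT-A partner of Wdr19, had 0, 277 and 161 estimated counts at 24 months and 2, 0 and 1 at 3 months, with a log2 change of 7.59 ± 2.17 (SE; adjusted p = 0.0290) in the authors' deposited table. Scube1, a secreted protein related to those that help release Hedgehog, had 231, 7 and 37 estimated counts at 24 months and 0, 0 and 1 at 3 months, with a log2 change of 8.19 ± 2.06 (SE; adjusted p = 0.00654) in the authors' deposited table. The Scube1 counts of the 2 ages did not overlap, and those of Ift122 did.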

How the data were processed

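Per the labels' protocols, Trizol-isolated RNA was primed with oligo-dT, copied by template switching, amplified by PCR and tagmented. No molecular identifiers or strand-keeping kit are named. Tools in the submitters' processing notes are kallisto, DESeq and DESeq2 (no version given). Both GRCm39 and mm10 stand there as builds, and the one behind each table is not given in the sources used here. For microglia the authors deposited estimated counts, TPM values and average transcript lengths per gene, per the file headers. For each tissue they deposited a table of normalized counts (a signal scaled between samples), log2 fold changes with standard errors, a Wald statistic (a score), p-values and adjusted p-values. The hippocampus log2 values there are 6 over 18 months and were turned round here.

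The members and gene lists were chosen with earlier results of these data known. Hippocampus values were compared with limma 3.58.1 (R 4.3.3, mean trend) on log2(normalized count + 1), keeping genes that reached 1 in 3 or more of the 6 libraries. All 10 members passed that filter, Ddx6 and Heatr5b through the 6 month libraries alone. This scale understates the change of low genes. Since the members were picked on this contrast, no hippocampus p-value of theirs is given, only the count of the authors' calls. Columns summed to 974372 to 1002839. Only 16.7% to 17.9% of low values were whole multiples (within 0.1) of the commonest value among genes seen in a single library, so reads were not recovered, the depth is unknown and no interval is given. Microglia counts (8072855 to 14226478 a library) were rounded and tested with edgeR 4.0.16 (quasi-likelihood, TMM, filterByExpr), and CPM use the TMM-scaled library size. Tests were two-sided, p-values were adjusted by Benjamini-Hochberg across the whole table tested, and the threshold was 0.05. Both fits were tested on simulated data. Floors cover counting error only. The entry without a gene name (0.0233% to 0.0335% of the hippocampus signal, 0.0546% to 0.0771% of microglia counts) was left out, and 0 sample columns matched no sample. Gene positions are from GENCODE M21 and promoters from RefSeq (5 of 10 members matched), both on GRCm38, which may not be the authors' build. Named genes were the members, fixed close partners, list genes past a threshold (up to 4 per direction) and the 5 genes most like the members, 1 of which is not reported here. Disp3 is not analysed here. Genes outside this rule are named as such.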

Additional observations from a re-analysis of the deposited data

How the results depend on the processing

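In the hippocampus the direction of the 10 genes was fixed by how they were chosen, and their lower level under the settings tried (pseudocount, filter, scaling, trend, replicate block, each library left out) is no sign of stability. The median over the 10 was -1.09 when only the 6 genes above 0 in all libraries were taken, a setting chosen after seeing the data. Log2 differences of the genes listed at 0 follow the pseudocount: with 0.5 and 5 they were -6.03 and -2.89 for Ddx6, -5.45 and -2.41 for Heatr5b, -4.95 and -2.39 for Wdr19 and -5.07 and -2.84 for Supt7l. limma called 0 genes, and 1 without the trend. Leaving out a library gave 0 to 1 calls, the 1 without 6 month replicate 1.

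In microglia the count of calls was 0 with edgeR under upper quartile scaling, no filter, the length offset, the replicate block and replicate 1 of both ages left out, and 140 with DESeq2. Without each replicate in turn it ranged from 0 to 55, the 55 without 24 month replicate 3. The median of the 5 tested members, 0.96, was 2.57 with the replicate block (3.10 for Ddx6 and 3.63 for Supt7l), 0.71 with replicate 1 of both ages left out and 0.34 to 3.14 with single libraries left out. With single libraries left out the log2 change ranged from -0.91 to 0.25 for Heatr5b, above 0 without 24 month replicate 1, 24 month replicate 3 or 3 month replicate 1, and from -2.75 to 0.13 for Wdr7, above 0 without 3 month replicate 1. It ranged from 0.34 to 9.39 for Ddx6, from 1.02 to 4.62 for Supt7l and from 0.59 to 3.14 for Rfx3, highest for each without 3 month replicate 3. With replicate 1 of both ages left out it turned for Wdr7 (0.71), Ddx6 (-0.25) and Heatr5b (0.47). The causes were not tested. Under no setting did a member pass the threshold in microglia.

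No pairing by replicate number was seen in the values. Deviations of same-numbered libraries from their group means had r of 0.01 for each pair in the hippocampus and -0.03 to 0.06 in microglia. Such values cannot show whether libraries of the same number were prepared together. With the replicate block limma called 0 genes and edgeR 0. The hippocampus depth is unknown, and 18 month replicate 1 had the most genes listed at 0, so absence of a gene there cannot be told from a low level.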
